A study of Mus musculus with 8 samples.

Results

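The subunits of phosphoinositide 3-kinase (PI3-kinase) were profiled on Affymetrix arrays in ventral prostate from FVB mice 20 weeks old, in 4 wild type samples labelled normal and 4 transgenic samples labelled as mouse prostatic intraepithelial neoplasia, a proliferation of the gland's epithelium that precedes invasive cancer. According to the series' title and design text, the transgene is a constitutively active allele of p110 beta, a class IA catalytic subunit, and the labels name neither the promoter that drives it nor the number of animals behind a sample. Members were all probe sets of the array named for 1 of 9 subunit genes, Pik3ca, Pik3cd, Pik3cg, Pik3r1, Pik3r2, Pik3c2a, Pik3c2g, Pik3c3 and Pik3r4. This gave 16 probe sets among 22626 tested, and all 9 genes had at least 1. The gene of the transgene itself, Pik3cb, is not analysed here, so the arrays give no check of the transgene's level. The question addressed was whether the other PI3-kinase subunits differ between normal prostate and the lesion.

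PI3-kinases phosphorylate the inositol ring of membrane lipids and fall into classes I, II and III by their substrates and partners. Class I enzymes are heterodimers that act downstream of growth factor and G protein-coupled receptors: a catalytic p110 subunit is stabilised and held in check by a regulatory subunit, and the lipid it makes recruits AKT kinases to the membrane. Class II enzymes are large single-chain kinases that act on endosomes and in endocytosis, and the class III enzyme, VPS34, makes the lipid PI3P for autophagy and endosome sorting together with its regulatory subunit VPS15. In prostate epithelium the class I pathway is known for promoting growth and survival.

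Of these subunits, Pik3c2g, which encodes a class II enzyme restricted to few tissues, was the one whose level fell. Of the 16 member probe sets 1 was lower in transgenic samples and 0 were higher in limma at an adjusted p of 0.05, where 4.36% of all probe sets were lower and 5.48% higher. At an unadjusted p under 0.05, 3 members differed, Pik3c2g and 2 probe sets of Pik3r1, against 21.0% of all probe sets. The remaining 15 member probe sets lay between -0.15 and 0.45 on the log2 scale (transgenic minus wild type). Of the 16, 11 lay above 0, which is 68.8% against 42.5% of all probe sets. Several of these probe sets belong to the same gene, so they are not separate counts. The median log2 fold change was 0.11 over the members and -0.03 over all probe sets. A count of 1 in 16 is near these shares and says nothing particular about the subunits as a group.

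**Figure D1:**
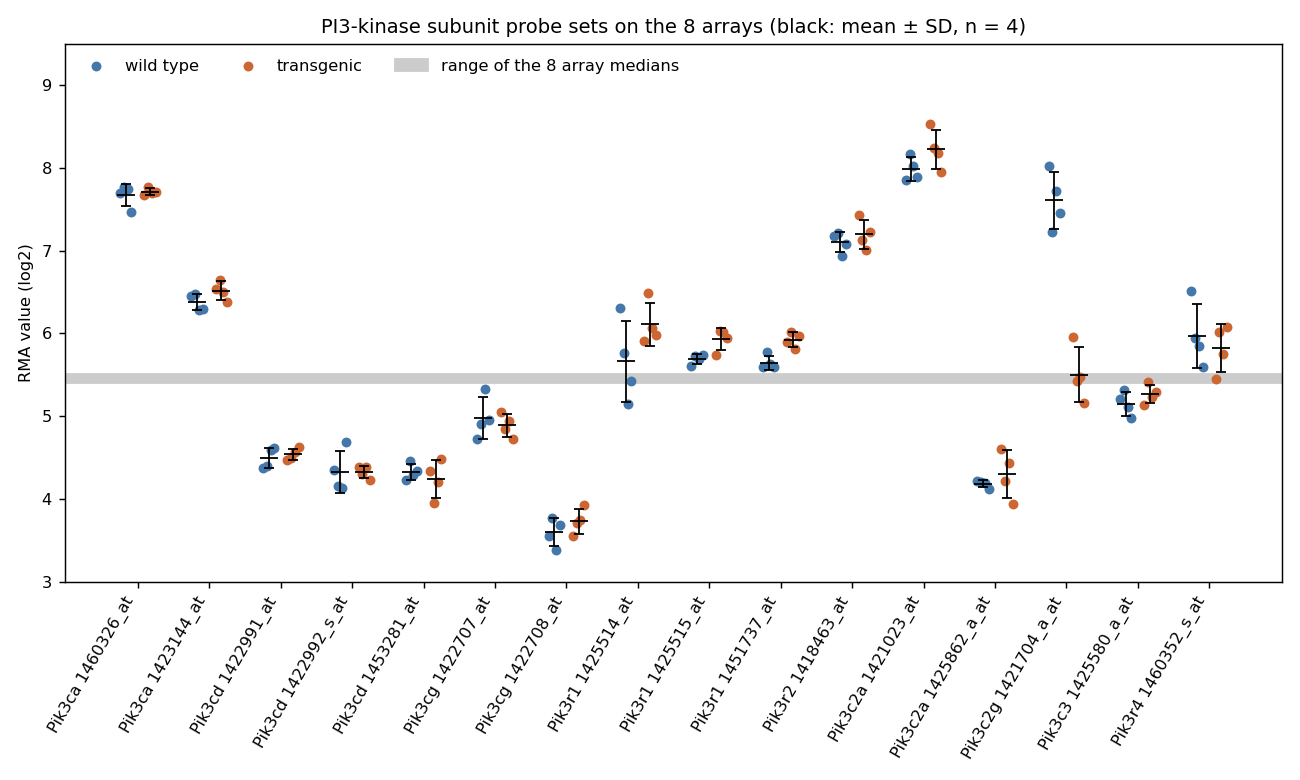
RMA values (log2) of the 16 PI3-kinase subunit probe sets on 4 wild type (blue) and 4 transgenic (orange) arrays, with mean ± SD (n = 4) in black and the range of the 8 array medians as a grey band. Pik3c2g drops from a wild type mean of 7.61 to a transgenic mean of 5.50, around the grey band, while the 2 groups of every other probe set lie close together.

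The promoters of both class II genes are shown because Pik3c2g changed and Pik3c2a did not pass the test. The sequences are the 250 bases before each annotated start site, from RefSeq on build GRCm38.p6, which is the C57BL/6J genome and not that of FVB. RefSeq lists 2 start sites for Pik3c2g, at chr6:139613822-139614071 (plus strand) and chr6:139841195-139841444 (plus strand), and 1 for Pik3c2a, at chr7:116443459-116443708 (minus strand). Capitals mark CpG dinucleotides, the sites of DNA methylation in mammals, which cluster at the promoters of broadly expressed genes.
Pik3c2a: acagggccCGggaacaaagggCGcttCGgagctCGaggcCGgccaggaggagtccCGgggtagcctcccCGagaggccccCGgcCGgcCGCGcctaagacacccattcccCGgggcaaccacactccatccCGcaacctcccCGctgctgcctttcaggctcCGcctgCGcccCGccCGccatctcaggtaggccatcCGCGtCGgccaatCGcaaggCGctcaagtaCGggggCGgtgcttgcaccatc
Pik3c2g first start site: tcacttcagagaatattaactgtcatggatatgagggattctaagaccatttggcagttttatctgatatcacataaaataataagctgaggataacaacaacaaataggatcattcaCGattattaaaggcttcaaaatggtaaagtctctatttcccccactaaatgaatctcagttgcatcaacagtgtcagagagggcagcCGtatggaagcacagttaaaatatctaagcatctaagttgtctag
Pik3c2g second start site: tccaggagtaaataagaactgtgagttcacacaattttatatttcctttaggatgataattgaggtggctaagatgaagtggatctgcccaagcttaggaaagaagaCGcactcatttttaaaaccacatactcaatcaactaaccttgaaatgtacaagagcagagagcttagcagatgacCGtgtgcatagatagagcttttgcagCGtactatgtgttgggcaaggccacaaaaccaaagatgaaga

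The Pik3c2g windows hold 2 and 3 CpG and that of Pik3c2a holds 25. The median over all 32851 promoter windows of this length was 6 CpG, with quartiles of 2 and 16. Both Pik3c2g windows thus lie at or above the lower quartile and below the median, and that of Pik3c2a lies above the upper quartile. Among the other members, 1 window each of Pik3r1 (30 CpG), Pik3r2 (29), Pik3ca (19) and Pik3cd (19) also lay above the upper quartile. The remaining windows lay between the quartiles, with 6 for the other start site of Pik3r1, 6 and 4 for those of Pik3cd, 3 and 5 for Pik3cg and 9 for Pik3r4. The GC box GGGCGG, searched on both strands, was found 2 times before Pik3c2a and 0 times in either Pik3c2g window, and 32.7% of all windows hold it. The letters TGTTCT, which form one arm of the androgen response element, were in neither class II promoter and are found in 16.1% of all windows. These and all other motifs were searched on both strands. TATAAA was found 1 time in the second Pik3c2g window, on the strand opposite to the one printed, where it reads TTTATA. The motif TATAAA was neither in the first window nor before Pik3c2a. It is held by 12.4% of all windows. Also searched were TGTTTAC (3.17% of all windows) and CACGTG (6.02%), which were in no class II window. These matches describe the letters of the windows and were set against no binding data.

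The fall of Pik3c2g was seen on every array. Its single probe set, 1421704_a_at, stood at 8.03, 7.23, 7.72 and 7.46 in wild type replicates 1 to 4, and at 5.95, 5.43, 5.48 and 5.16 in transgenic replicates 1 to 4. The groups did not overlap, which holds in this direction for 7.38% of all probe sets, and the lowest wild type array lay more than 1 log2 unit above the highest transgenic array. The means were 7.61 ± 0.34 and 5.50 ± 0.33 (SD, n = 4 each), a log2 fold change of -2.11 ± 0.19 (SE) with an adjusted p of 3.81e-05 in limma. Pik3c2g was therefore 4.30-fold higher in wild type (95% interval 3.21 to 5.77). It ranked 9th lowest by fold change among 12393 genes. The transgenic values lie around the array medians (5.40 to 5.51), with 3 of the 4 above and 1 below their own, a range where background can set the value, so the fold is approximate. Omitting arrays one at a time moved this fold change between -2.26 and -1.97.

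Levels of some cell type markers also differed between the groups. Whole-tissue RNA mixes several cell types, and fewer cells of a type cannot be told apart from less RNA per cell. Luminal epithelial markers were above the array median on all arrays for 8 of 8 genes, and 5 of the 8 were higher in transgenic samples. Their summed level was 13.41 to 13.60 in wild type and 14.12 to 14.16 in transgenic arrays (log2). Of 4 ventral prostate secretory genes 3 were lower, with a summed level of 14.91 to 15.25 against 13.89 to 14.53. Of 5 basal cell markers 3 were lower, with a summed level of 9.39 to 9.64 against 8.12 to 8.79. Among stromal markers, 2 of 10 smooth muscle and 2 of 8 fibroblast genes were lower, with summed levels of 12.73 to 13.61 against 12.30 to 12.73 and of 11.23 to 12.18 against 10.67 to 10.83. With a stromal score, the mean centred level of these 18 genes, as a covariate, the log2 fold change of Pik3c2g was -2.56 (adjusted p = 0.000135). The score itself did not overlap between the groups, at -0.12 to 0.84 in wild type and -0.45 to -0.17 in transgenic arrays. The part of these marker differences in the fall of Pik3c2g was not tested.

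The 5 genes whose pattern over the 8 arrays was most like that of Pik3c2g, by the root mean square difference of values centred on their own mean, were Aass, Trpv6, Cldn23, Mt2 and Crabp1. This difference was 0.17 for Aass, an enzyme of lysine breakdown, 0.20 for Trpv6, a calcium channel of epithelia, and 0.23 for Cldn23, a claudin of tight junctions. It was 0.25 for Mt2, a metallothionein, and 0.30 for Crabp1, which binds retinoic acid inside cells. All 5 were lower in every transgenic array than in every wild type array, with log2 fold changes between -2.24 and -1.85. They were selected for this likeness, so their direction is a description.

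Pik3c2a, the broadly expressed class II enzyme, did not follow Pik3c2g. Probe set 1421023_at stood at 7.86, 8.17, 8.02 and 7.89 in wild type replicates and at 8.53, 8.24, 8.19 and 7.95 in transgenic replicates, in the order 1 to 4. The groups overlapped, and the log2 fold change of 0.24 (95% interval -0.04 to 0.53) had an adjusted p of 0.336 in limma. Its other probe set, 1425862_a_at, lay below the median on every array and had a fold change of 0.12 (95% interval -0.18 to 0.41). The difference between the class II genes within an array, Pik3c2a minus Pik3c2g, was 0.38 ± 0.46 in wild type and 2.72 ± 0.11 in transgenic arrays (SD, n = 4 each). It was thus 2.35 larger in transgenic samples, and the groups did not overlap (exact permutation p = 0.0286, two-sided, the smallest that 70 assignments allow; 0.114 adjusted over the 4 pairs tested). In limma, with the differences added as rows to the table, the interval was 1.93 to 2.76 (adjusted p = 1.61e-05); this test was added after the data were seen. Pik3c2g alone changed by -2.11, so this limma row largely repeats its call and is no separate support. With a smallest p of 0.0286, the permutation test could not pass after adjustment for 1 pair alone.

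**Figure D2:**
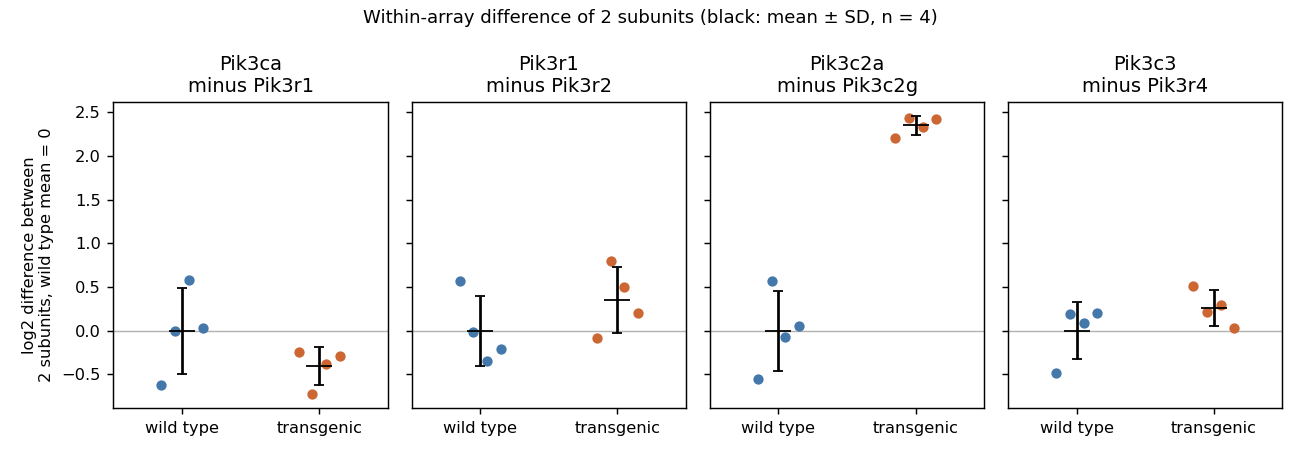
Within-array difference of the log2 values of 2 subunits, set to 0 at the wild type mean, in 4 wild type (blue) and 4 transgenic (orange) arrays with mean ± SD (n = 4) in black. The groups separate for Pik3c2a minus Pik3c2g, by 2.35, and overlap for Pik3r1 minus Pik3r2, Pik3c3 minus Pik3r4 and Pik3ca minus Pik3r1.

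Among class I catalytic subunits, 0 of 7 probe sets passed in limma and 0 had an unadjusted p under 0.05. Pik3ca encodes p110 alpha, the isoform most often mutated in human carcinomas. Its probe set 1460326_at stood at 7.69, 7.77, 7.75 and 7.47 in wild type and at 7.67, 7.77, 7.70 and 7.71 in transgenic replicates 1 to 4, with the groups overlapping. The fold change of transgenic over wild type was 1.03 (95% interval 0.89 to 1.19; limma adjusted p = 0.865), which bounds any difference seen by this probe set at about that interval. The other Pik3ca probe set, 1423144_at, gave 1.10 (95% interval 0.95 to 1.28).

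Pik3cd and Pik3cg encode p110 delta and p110 gamma, isoforms that work mainly in leukocytes. All 3 probe sets of Pik3cd and both of Pik3cg lay below the array median on all 8 arrays, so a change of theirs could go unseen. Means of the Pik3cd probe sets were between 4.24 and 4.54 in both groups, with log2 fold changes from -0.08 to 0.05. Pik3cg 1422707_at stood at 4.98 ± 0.25 in wild type and 4.89 ± 0.14 in transgenic arrays (SD, n = 4 each), and 1422708_at at 3.60 ± 0.17 and 3.73 ± 0.15. Beside them, 0 of 14 leukocyte markers passed in limma, 0 had an unadjusted p under 0.05 and 9 lay below the median on every array. The markers' summed level was 9.21 to 9.92 in wild type and 9.46 to 9.60 in transgenic arrays (log2).

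The regulatory subunit gene Pik3r1, which encodes p85 alpha and its shorter forms, was nearest to the threshold among the members not called. All 3 of its probe sets had higher means in transgenic samples, and none passed. Their values lie around or just above the array medians (5.40 to 5.51), where background can set part of the value. Probe set 1451737_at stood at 5.59, 5.77, 5.63 and 5.60 in wild type and at 5.90, 6.02, 5.82 and 5.97 in transgenic replicates 1 to 4. Its groups did not overlap, which holds in this direction for 7.59% of all probe sets. The log2 fold change was 0.28 (95% interval 0.07 to 0.48), with an adjusted p of 0.0942 in limma. Over its 16 alternatives the adjusted p ranged from 0.0425 to 0.260; it passed under both other normalizations (quantile, adjusted p = 0.0488, and cyclic loess, at the lower end of that range) and missed the threshold under the other 14.

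Probe set 1425515_at of Pik3r1 stood at 5.61, 5.73, 5.69 and 5.75 in wild type and at 5.75, 6.03, 6.02 and 5.95 in transgenic replicates 1 to 4. The groups touched, and the log2 fold change was 0.24 (95% interval 0.03 to 0.46; limma adjusted p = 0.171). The third, 1425514_at, varied most: 6.30, 5.76, 5.15 and 5.43 in wild type and 5.91, 6.49, 6.07 and 5.98 in transgenic replicates 1 to 4. Wild type replicate 1 lay among the transgenic arrays. The log2 fold change was 0.45 (limma adjusted p = 0.275), and single arrays moved it both ways: 0.66 without wild type replicate 1 (adjusted p = 0.0308), 0.28 without wild type replicate 3 (adjusted p = 0.581) and 0.33 without transgenic replicate 2 (adjusted p = 0.576). With the mean of the 3 probe sets in place of each, limma gave 0.32 (95% interval 0.09 to 0.56; adjusted p = 0.0744).

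Pik3r2, which encodes p85 beta, stood at 7.10 ± 0.12 in wild type and 7.20 ± 0.18 in transgenic arrays (SD, n = 4 each), and the groups overlapped. Its log2 fold change was 0.10 (95% interval -0.15 to 0.35; limma adjusted p = 0.715). The difference Pik3r1 minus Pik3r2, with 1425514_at for Pik3r1, was -1.44 ± 0.40 in wild type and -1.09 ± 0.38 in transgenic arrays (SD, n = 4 each; exact permutation p = 0.257, and 0.257 adjusted over the pairs). In the limma fit of the differences, added after the data were seen, the interval of its change was -0.12 to 0.83. The data thus do not show that the 2 regulatory genes changed alike or that they differed. Pik3ca minus Pik3r1, the catalytic against the regulatory gene, was 0.41 lower in transgenic samples. It went from 2.01 ± 0.49 to 1.60 ± 0.22 (SD, n = 4 each, exact permutation p = 0.2, adjusted 0.257). The interval of this change in the same limma fit was -0.87 to 0.06.

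**Figure D3:**
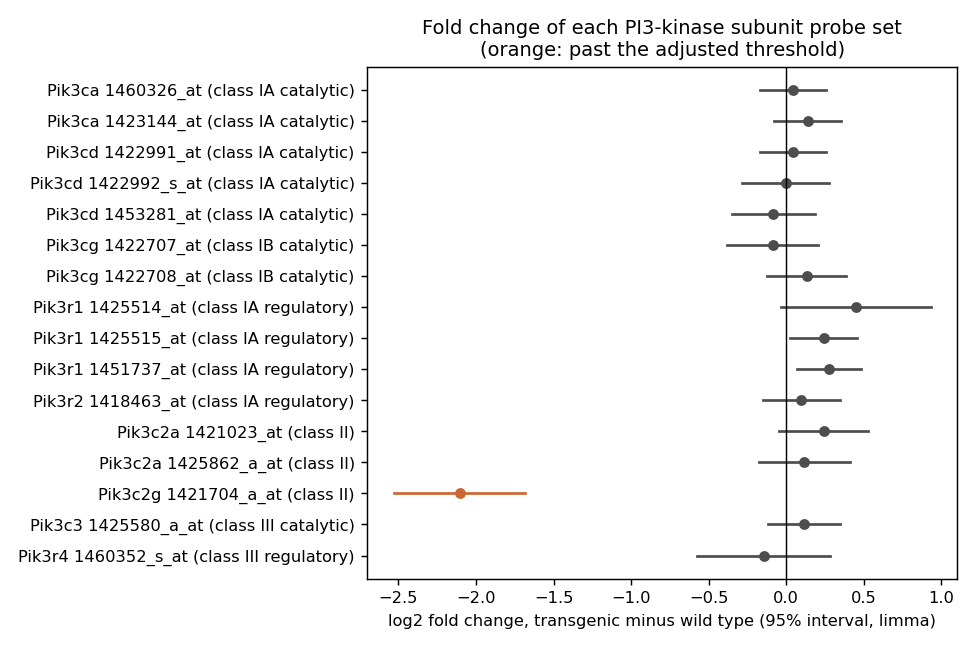
Log2 fold change of each PI3-kinase subunit probe set (transgenic minus wild type) with its 95% interval from limma, in the order class IA and IB catalytic, class IA regulatory, class II and class III. Pik3c2g at -2.11 stands alone on the left, and the intervals of Pik3r1 1425515_at and 1451737_at lie just above 0.

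The class III complex showed no call. Pik3c3, which encodes the lipid kinase VPS34, stood at 5.20, 5.31, 5.11 and 4.97 in wild type and at 5.14, 5.41, 5.23 and 5.29 in transgenic replicates 1 to 4. These values overlap and lie below the array medians, and the log2 fold change was 0.12 (95% interval -0.12 to 0.35; limma adjusted p = 0.619). Pik3r4, which encodes VPS15, stood at 6.51, 5.94, 5.85 and 5.59 in wild type and at 5.45, 6.02, 5.76 and 6.08 in transgenic replicates 1 to 4. Its log2 fold change was -0.15 (95% interval -0.57 to 0.28; limma adjusted p = 0.754), and without wild type replicate 1, the highest array, it was 0.03. Pik3c3 minus Pik3r4 changed by 0.26 (exact permutation p = 0.229, adjusted 0.257), with an interval of -0.10 to 0.62 in the limma fit of the differences.

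Around the subunits, a list of 72 further genes that make, remove or read phosphoinositides or act downstream of them had 56 measured genes. Of these 1 was higher and 5 were lower in limma, 10.7% in all, where 5.99% of 12393 genes were higher and 4.98% lower. The share is near that of all genes. The median log2 fold change of the list was -0.07, against -0.04 over all genes. Without wild type replicate 1 or transgenic replicate 1 the lower genes numbered 8, and without wild type replicate 2 or transgenic replicate 2 or 3 they numbered 3. The single higher gene was lost without wild type replicate 2 or 3, and 2 were higher without transgenic replicate 1.

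Of 5 adaptor genes 1 fell, Irs1, which couples insulin and IGF receptors to p85. It stood at 8.89, 8.68, 8.68 and 8.46 in wild type and at 8.04, 7.83, 7.74 and 7.54 in transgenic replicates 1 to 4. The groups did not overlap, and Irs1 was 1.85-fold higher in wild type (95% interval 1.52 to 2.25; limma adjusted p = 0.00102).

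Of 11 partners of the class III complex or readers of its lipid 3 fell. Wipi1 and Wipi2 encode proteins that bind PI3P on forming autophagosomes. Wipi1 went from 8.36 ± 0.16 to 7.59 ± 0.11 (SD, n = 4 each, limma adjusted p = 0.000809). This was at 1439060_s_at, a probe set marked as matching several transcripts. In all, 3 of the 5 Wipi1 probe sets passed, of which 1452392_a_at and 1456624_at lay above the array median on 3 arrays each. Wipi2 fell by 0.42 (limma adjusted p = 0.0239). This call was lost without wild type replicate 2 or 4 or transgenic replicate 1, 2 or 3 (adjusted p up to 0.0757). It was also lost with the stromal score, where the log2 fold change was -0.41 (adjusted p = 0.244). A second probe set of Wipi2 stood at -0.15 without passing. Becn1, which encodes the VPS34 partner Beclin 1, fell by 0.36 (limma adjusted p = 0.0447). This call was absent when wild type replicate 1, 2 or 3 or transgenic replicate 2, 3 or 4 was left out (adjusted p up to 0.152). With the stromal score it was absent too, at a log2 fold change of -0.33 (adjusted p = 0.381). The Becn1 probe set that passed, 1455880_s_at, is marked as matching several transcripts, and the other 3 did not pass.

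Of 13 lipid phosphatase genes 1 rose, Mtm1, which encodes the PI3P phosphatase myotubularin, from 6.78 ± 0.10 to 7.22 ± 0.12 (SD, n = 4 each; limma adjusted p = 0.0167). It missed the threshold without wild type replicate 2 (adjusted p = 0.0504) or 3 (adjusted p = 0.0557). With the stromal score it missed the threshold too, at a log2 fold change of 0.35 (adjusted p = 0.310). The other 2 probe sets of Mtm1, at 0.62 and 0.20, did not pass. Of 9 other phosphoinositide kinases 1 fell, Pi4k2b, a phosphatidylinositol 4-kinase, by 0.63 (adjusted p = 0.0102), with 2 of its 3 probe sets past the threshold.

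No gene of the AKT or mTOR branches passed in limma in the reported fit. Of 8 effector kinase and phosphatase genes 1 had an unadjusted p under 0.05, Sgk1, a kinase related to AKT, at 10.41 ± 0.26 in wild type and 9.90 ± 0.21 in transgenic arrays (SD, n = 4 each; adjusted p = 0.0503). All 9 mTOR branch genes had a fold change below 0, with a median of -0.22 on the log2 scale, 3 of them at an unadjusted p under 0.05. Over all 12393 genes 7235 were below 0 and 2826 had an unadjusted p under 0.05. Under quantile or cyclic loess normalization 8 of the 9 were below 0. The one with the smallest p was Rps6kb2, which encodes an S6 kinase, at -0.41 (adjusted p = 0.104). Pik3ap1, an adaptor for class I PI3-kinase in leukocytes, lay near background at 4.86 and 4.72, with a fold change of -0.14 (limma adjusted p = 0.645).

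**Figure D4:**
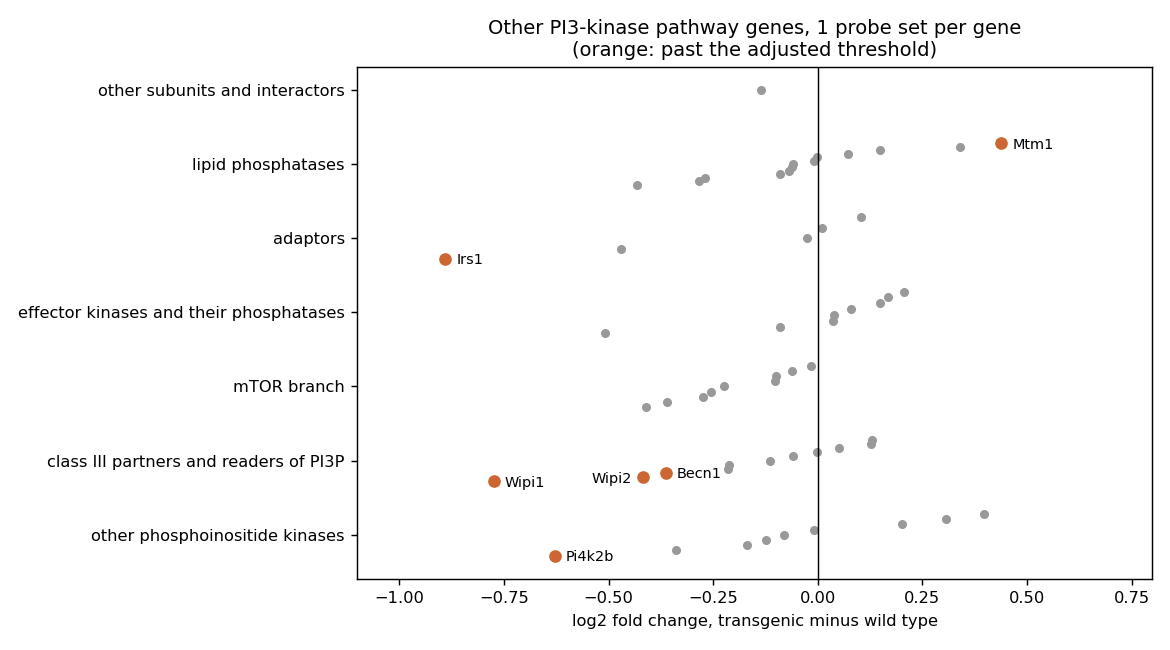
Log2 fold change (transgenic minus wild type) of 56 other genes of phosphoinositide signalling, 1 probe set per gene, in rows by role, with genes past the adjusted threshold in orange. Irs1 (-0.89) and Wipi1 (-0.77) lie farthest to the left and Mtm1 (0.44) farthest to the right.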

How the data were processed

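The authors deposited log2 values from RMA, an array method named without a version in the submitters' processing notes. It subtracts background, equalises the arrays by quantiles and combines the probes of a set, so a shift shared by all transcripts would be lost. Of 22690 probe sets 64 controls were left out. Names came from the platform's annotation, with symbols updated through the RefSeq table of GRCm38.p6: 20380 had 1 symbol, 691 several and 1555 none. The fit over all 22626, transgenic minus wild type, used lmFit and eBayes of limma 3.58.1 (R 4.3.3), with Benjamini-Hochberg adjustment and a threshold of 0.05. A gene outside the members was represented by its probe set with the highest mean. The number of arrays limits the precision, and since no label ties arrays to separate animals, p-values reflect only the spread of these samples, which may be technical. Array correlations lay between 0.967 and 0.996, and no arrays were copies. The fit was tested on simulated data.

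The rule for names took every member, then up to 4 called genes of each pathway role, or the gene with the smallest p where none passed, and the 5 genes most like each called member. The members and lists were chosen with earlier results of these data known. Alternatives were 2 normalizations, a filter on dim probe sets, a variance trend, array weights, a replicate block, a stromal covariate, other probe set choices and leaving out each array.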

Additional observations from a re-analysis of the deposited data

Results flagged for a closer look

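Of 52 sets of 4 arrays checked for a single distant array, 2 had one, and chance alone gives about 5%. Wild type replicate 4 stood at 6.93 for Mtm1, with the other wild type arrays between 6.71 and 6.74. For Pik3c3 minus Pik3r4, wild type replicate 1 stood at -1.31 and the other wild type arrays between -0.73 and -0.62.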

How the results depend on the processing

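Pik3c2g kept its direction and its call under all 15 alternatives that could be run for it, with log2 fold changes from -2.56 to -1.97 and adjusted p up to 0.000308. Its only probe set is marked as matching several transcripts, so leaving out shared probe sets left 0 lower members. Leaving out the dimmest 40% of probe sets kept 11 of the 16 members. The count of higher members, 0 in the reported fit, was 1 with quantile normalization, cyclic loess normalization or array weights, each time a Pik3r1 probe set, and 0 to 1 when leaving out each array; the count of lower members was 1 to 1 there. With array weights 11 pathway genes were lower and 2 higher, and with the stromal score 3 were lower and 0 higher. Quantile normalization, cyclic loess normalization and the filter on dim probe sets each gave 6 lower and 1 higher. The variance trend gave 4 lower and 1 higher. Leaving out each array gave 3 to 8 lower and 0 to 2 higher pathway genes. No pairing by replicate number was seen: deviations of arrays with the same number correlated between -0.31 and 0.33, and 2 of 8 arrays correlated best with their own number. These correlations cannot exclude a pairing. With the replicate block 0 pathway genes were higher, and Mtm1 (adjusted p = 0.0527) and Becn1 (adjusted p = 0.105) missed the threshold, while the member counts were as reported. Pik3c2a minus Pik3c2g, at 2.35, passed in limma and not by permutation, whose smallest p is limited by the number of arrays; leaving out each array gave 2.17 to 2.54. Leaving out each array gave -0.61 to -0.21 for Pik3ca minus Pik3r1, 0.21 to 0.54 for Pik3r1 minus Pik3r2 and 0.10 to 0.34 for Pik3c3 minus Pik3r4.

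Signs changed for values near 0 that were never called. Pik3cd 1422992_s_at turned to 0.036 with quantile and 0.042 with cyclic loess normalization and to 0.086 with array weights, and lay between -0.069 and 0.12 when leaving out each array. Pik3cd 1453281_at turned to 0.016 with the stromal score and lay between -0.16 and 0.017 when leaving out each array. The same ranges were -0.17 to 0.028 for Pik3cg 1422707_at, -0.022 to 0.076 for Pik3ca 1460326_at and -0.27 to 0.034 for Pik3r4. The causes were not tested. Values below the array medians, as for Pik3cd, Pik3cg, Pik3c3 and one Pik3c2a probe set, limit what a missing call can show. Those of Pik3r1 lay around or just above the medians, so its folds are approximate too.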
